A study of Brassica napus with 6 samples.

Results

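Siliques, the seed pods of oilseed rape (Brassica napus), were compared with its flower buds over all 19 chromosomes, in the hybrid HZ62. The comparison used 4 of the 6 libraries of the series, with 2 silique libraries and 2 flower bud libraries, and all 80932 genes listed in the normalized table, and it left out the seedling libraries. Silique samples were pods 3 to 5 cm long and flower bud samples were buds shorter than 2 mm. Both tissues carried the genotype label WT, and the plants grew in 16 h light and 8 h dark, with 22 °C in the light phase and 18 °C in the dark phase. The labels leave unstated whether replicate libraries derive from separate plants and whether silique and flower bud derive from the same plants. The p-values therefore measure only how these samples spread, and that spread may be technical.

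Oilseed rape arose from a cross of Brassica rapa, the source of its A chromosomes, with Brassica oleracea, the source of its C chromosomes. The A and C sets hold homoeologous chromosomes, which descend from the same ancestral chromosome and share much of their gene order. A1 pairs in this way with C1, A2 with C2 and A3 with C3, while A7 shares segments with C6. Exchanges of segments between such chromosomes are a known source of variation among oilseed rape plants. A young bud holds forming sepals, petals, anthers and ovary, with meiosis and pollen development in its anthers. A silique several centimetres long consists of a green, photosynthetic pod wall around growing seeds.

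The silique libraries held 12506762 and 10359099 reads, against 12614212 and 12543622 in the flower bud libraries, as recovered from the normalized values. Values below are the authors' normalized values, in which 1 read is worth between 0.0796 and 0.0985. Across genes the Pearson correlation of log2(value + 1) was 0.985 between the silique libraries and 0.986 between the flower bud libraries, and it lay between 0.753 and 0.764 across tissues. Libraries of 1 tissue differed by more than counting noise, the chi-square per gene being 2.37 in silique and 2.47 in flower bud. In bulk tissue, more cells of a type cannot be told apart from more RNA per cell. The identifiers are not paired with gene names, so the tissue labels could not be checked against marker genes, and results are described by level, chromosome and position.

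Most genes were used in both tissues, and a minority differed strongly. In silique 43215 genes had a value of 1 or more in each library, and in flower bud 44391 did. Of these, 39486 were shared, which is 91.4% of the silique genes and 89.0% of the flower bud genes. Of 47347 genes tested, 5164 rose in silique, or 10.9% of those tested, and 5980 fell, or 12.6% (limma, Benjamini-Hochberg adjusted p under 0.05 and a difference of at least 1 on the log2(value + 1) scale). This scale understates the change of genes with low values. The median difference of called genes was 1.62 among the genes that rose and -1.57 among those that fell, or 1.60 and -1.55 when a tissue without reads was given the bound of 3 reads over both libraries. A difference of at least 3 on this scale was reached by 637 genes that rose and 763 that fell.

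The balance between the directions depended on the scaling. The median difference of all tested genes was -0.12 with the authors' scaling and -0.01 with TMM factors (trimmed mean of M values) recomputed from these 4 libraries. With the recomputed factors 5893 genes rose and 5200 fell. The edgeR quasi-likelihood test on recovered reads, with its own filter, found 7854 genes that rose, or 15.7% of 50143 tested, and 7356 that fell, or 14.7%.

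Genes that rose carried a large part of the silique reads. They took 19.6% ± 0.195 of the reads in silique and 5.42% ± 0.140 in flower bud (SD, n = 2 each). Genes that fell took 3.28% ± 0.00536 of the reads in silique and 14.5% ± 0.330 in flower bud. Of the genes that rose, 635 had no read in either flower bud library, with a median normalized value of 5.44 in silique, and 178 of them stood at 10 or more. Of the genes that fell, 745 had no read in either silique library, with a median of 5.68 in flower bud, and 261 of them stood at 10 or more. These shares describe genes chosen by the same contrast. Genes were tested only from a minimum mean value over the libraries of both tissues. A called gene without reads in a tissue thus entered only through its level in the other tissue. The numbers and medians of such genes therefore depend on that minimum, and they do not describe all genes without reads there.

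**Figure D1:**
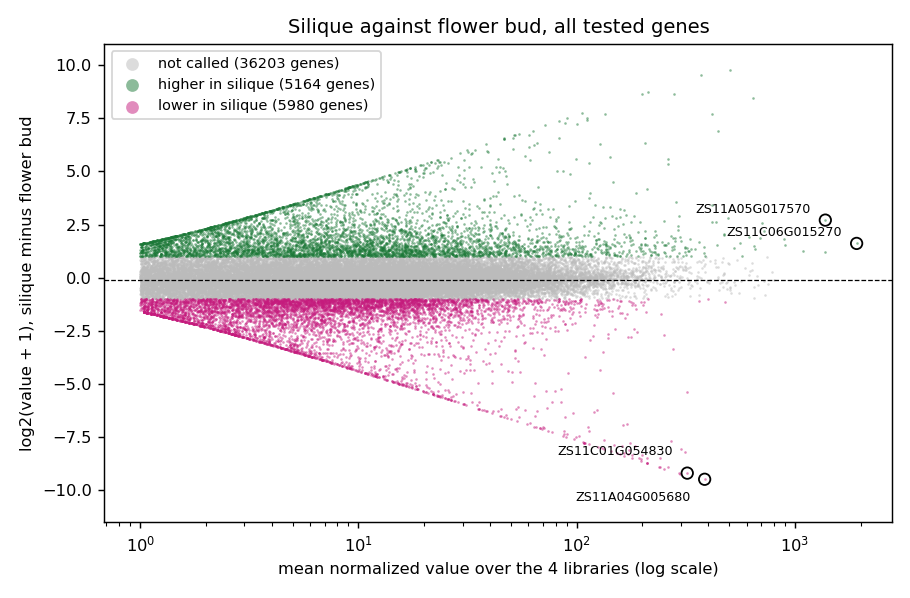
Each point is 1 of 47347 tested genes, placed by its mean normalized value over the 4 libraries (x, log scale) and the difference of log2(value + 1), silique minus flower bud (y). Green points are the 5164 genes that rose, magenta points the 5980 that fell, circles mark the 4 named genes and the dashed line is the median of all genes at -0.12. The slanted edges are genes with almost no reads in 1 tissue.

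Silique expression rested more on a few very abundant genes. The 10 most abundant genes of each library took 1.59% ± 0.0163 of the reads in silique and 0.820% ± 0.0232 in flower bud (SD, n = 2 each). For the 100 most abundant genes the share was 6.80% ± 0.0102 in silique and 5.04% ± 0.0486 in flower bud. For the 1000 most abundant genes the silique libraries were at 25.04% and 25.05%, against 21.4% and 20.9% in flower bud. In each case the gap exceeded the spread between libraries, although an exact permutation test of 2 libraries against 2 cannot go below p = 0.33. Of the 100 genes with the highest mean in silique, 56 rose and 44 were not called. Of the 100 highest in flower bud, 31 fell in silique, 8 rose and 61 were not called, and 39 genes stood in both lists.

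The balance of genes that rose and fell differed with level. Among the 1513 tested genes with a mean value of 100 or more, 16.8% rose and 8.66% fell. This excess of genes that rose was also found with recomputed TMM factors, at 19.6% and 7.53%. Among the 9029 genes between 20 and 50 the shares were 7.96% and 7.85%, and with recomputed factors 9.45% and 6.47%. Among the 9370 genes between 2 and 5, 13.2% rose and 17.2% fell, or 14.7% and 15.5% with recomputed factors. In the lowest group, with values from 1 to 2, 14.2% rose and 16.4% fell, but 15.8% rose and 14.9% fell with recomputed factors. The order also turned between 10 and 20, where 894 of 9767 genes rose and 1075 fell with the authors' scaling, against 1042 and 902 with recomputed factors.

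**Figure D2:**
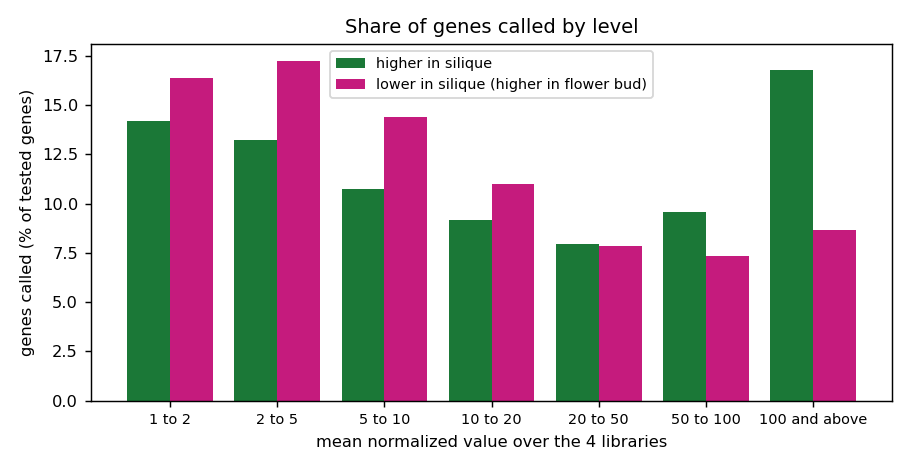
Bars give the percent of tested genes that rose (green) or fell (magenta) in silique, in 7 groups by mean normalized value over the 4 libraries, with the authors' scaling. Genes that rose are the larger group at values of 50 and above, and genes that fell at values below 20, except that recomputed TMM factors turned the order in the groups from 1 to 2 and from 10 to 20.

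The 4 genes with the largest change in level show the range from a graded change to presence in 1 tissue. They were the A gene and the C gene with the largest rise and the largest fall in normalized value. They were picked among called genes whose libraries did not overlap between the tissues, with no known overlap with another gene model. For the C6 gene overlap could not be checked, since its position is missing from the count table. Positions are those of the count table, counted from 1, and the genome build is not given in the sources used here.

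ZS11C06G015270, on chromosome C6, was the most abundant gene of both tissues. It had normalized values of 2871 and 2908 in silique, against 965 and 921 in flower bud. The silique libraries were both about 3 times as high as the flower bud libraries, with a difference of 1.62 ± 0.05 (SE) on the log2(value + 1) scale (limma adjusted p = 1.82e-10). Its position and exons were not analysed here.

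ZS11A05G017570 (chromosome A5, 10921198 to 10924397, minus strand) had values of 2366 and 2415 in silique, against 370.5 and 358 in flower bud. It ranked 2 in silique and 88 in flower bud, and its libraries did not overlap between the tissues, which the choice required. The mean was 6.56 times as high in silique, a difference of 2.71 ± 0.05 (SE; limma adjusted p = 3.6e-12).

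ZS11A04G005680 (chromosome A4, 4184009 to 4185983, minus strand) had values of 0.162 and 0 in silique, from 2 reads in replicate 1 and 0 in replicate 2, against 769 and 774 in flower bud. It was nearly absent from both silique libraries while ranking 7 in flower bud. The ratio of flower bud to silique was 8667 by reads (exact 95% interval 2399 to 71572, counting error only), and the difference was -9.48 ± 0.11 (SE; limma adjusted p = 4.51e-13).

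ZS11C01G054830 (chromosome C1, 50550152 to 50553359, minus strand) had values of 0 and 0.197 in silique, from 0 and 2 reads, against 593 and 691 in flower bud. It ranked 16 in flower bud. The ratio of flower bud to silique was 7216 (exact 95% interval 1997 to 59588, counting error only), and the difference was -9.19 ± 0.13 (SE; limma adjusted p = 6.8e-13). All 4 genes kept their call under each alternative run for them, which comprised edgeR on recovered reads, other pseudocounts, the replicate block and leaving out each library.

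Chromosomes took different shares of the reads in the 2 tissues. The share of reads did not overlap between the tissues on any of the 19 chromosomes, with 9 higher and 10 lower in silique, although on A2 the gap of 0.0164 percentage points was within 1 SD of the silique libraries. On C1 the gap turned from -0.0514 to 0.0254 points without the 4 named genes. On A10 it turned from -0.0428 to 0.0158 without the 100 most abundant genes. The sign held on the other chromosomes in both cases. The widest gap was on A5, with 4.75% and 4.77% of the reads in silique, against 4.29% and 4.26% in flower bud. Abundant genes made up part of it: the gap of 0.490 percentage points fell to 0.303 without the 4 named genes and to 0.225 without the 100 most abundant genes. On A7 the libraries held 4.78% and 4.77% in silique, against 4.39% and 4.37% in flower bud. There the gap of 0.396 points was 0.457 without the 100 most abundant genes. C2 held 3.88% and 3.89% in silique, against 4.29% and 4.33% in flower bud, a gap of -0.424 points that was -0.369 without the most abundant genes. A1 was also lower in silique, with 4.75% and 4.73% against 5.02% and 5.02% in flower bud.

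Called genes were also spread unevenly. C2 had the highest share of genes that fell, 413 of 2341 tested or 17.6%, beside 12.6% over all genes, and A1 followed with 332 of 2186 or 15.2%. The share of genes that rose was highest on A2, with 13.9%, and on A7, with 13.6%, beside 10.9% over all genes. On A2 the share that fell, 13.6%, was also above that over all genes. The share of genes that rose was lowest on C5, with 8.67%. These shares are descriptions over genes, which are not independent of each other, and were not tested.

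**Figure D3:**
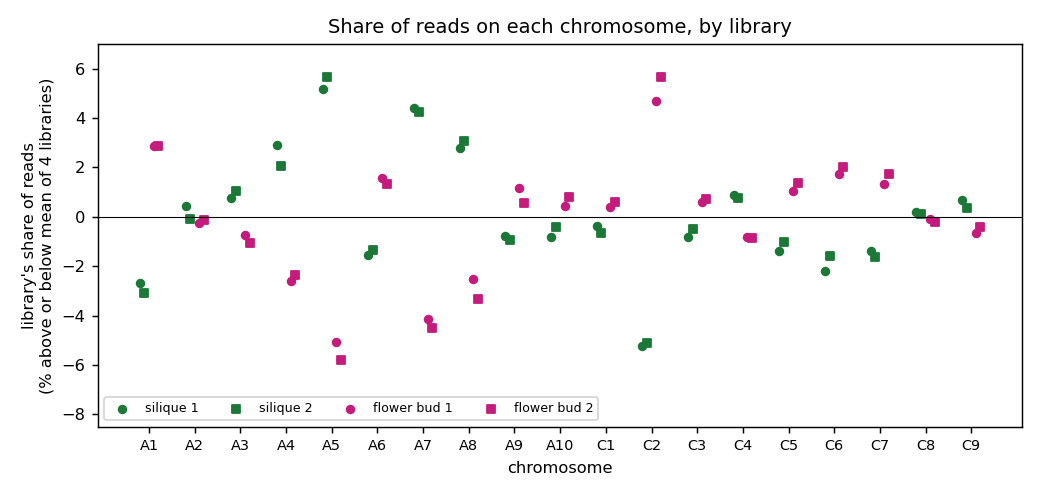
Each point is 1 library's share of reads on a chromosome, as the percent by which it lies above or below the mean of the 4 libraries. Silique libraries are green and flower bud libraries magenta, with circles for replicate 1 and squares for replicate 2. A5 and A7 are the chromosomes that stand highest in silique, and C2 and A1 those that stand lowest.

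The A subgenome held a slightly larger part of the reads in silique. Counting only reads placed on chromosomes, 48.04% and 48.01% lay on A chromosomes in silique, against 47.2% and 47.1% in flower bud. The difference of 0.862 percentage points exceeded the spread between libraries (two-sided exact permutation p = 0.33, the smallest that 2 libraries against 2 allow). Among tested A genes 11.8% rose and 12.5% fell in silique, and among C genes 10.1% rose and 12.7% fell. How reads that match both an A and a C copy were assigned was not stated in the sources used here. This step sets the level of either copy.

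In long stretches of chromosomes the median gene shifted between the tissues. Running medians over 100 consecutive tested genes, moved in steps of 10, were compared with the median of all tested genes, so that a factor common to all genes of a library largely cancels. Below, a relative shift is the median difference of a set of genes, silique minus flower bud on the log2(value + 1) scale, minus the median of all tested genes. Of 4547 such windows, 447 had a relative shift of at least 0.2 in either direction. Between the 2 silique libraries no window did so, nor between the 2 flower bud libraries, where the largest deviations were 0.11 and 0.13. Single genes also differed more between tissues, by a median of 0.49, than between replicates (0.16 in silique, 0.15 in flower bud). The replicates are therefore no baseline for an effect of position, and windows of genes in random order were not tested. Overlapping windows past 0.2 in the same direction joined into 14 stretches of at least 200 genes. They held 4910 genes, 10.4% of those tested. Of these genes 660 rose, or 13.4%, beside 10.9% of all tested genes, and 840 fell, or 17.1%, beside 12.6%. Genes within a stretch were mixed: the share on the shifted side of the median of all genes lay between 58.8%, on A2, and 70.8%, on C2. The stretches were found by the same difference that is described here, so their values carry no test.

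The largest shift lay at the end of chromosome C2. From 52290488 to 65200872, 520 tested genes had a relative shift of -0.51, and 191 of them (36.7%) fell while 41 (7.88%) rose. Their summed normalized value was 5396 and 5411 in the silique libraries, against 7998 and 8002 in the flower bud libraries. Both silique libraries were lower, at 0.675 times the flower bud mean, with little spread within either tissue. The shift was uneven along the stretch: over the last 10 blocks of 50 tested genes the relative shift lay between -0.12 and -1.68, and it was -0.31 in the block just before the strongest one. Of the 50 tested genes between 63072073 and 64327196, 47 lay below the median of all genes, 43 fell and 0 rose, and the median was lower by a factor of 3.22. In the last 50 tested genes, which reach 65217261, the median was lower by a factor of 1.69, with 24 genes that fell and 9 that rose. The summed value of these 50 genes moved less, at 448 and 443 in silique, against 485 and 500 in flower bud.

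At the end of chromosome A2, the homoeologue of C2, the median gene shifted the other way. There the 240 tested genes from 26459294 to 30014773 had a relative shift of 0.20, and the 240 from 30277449 to 33367669 one of 0.28. The shift was uneven, with -0.09 in the 50 tested genes from 31667723 to 32299842. The summed value of the stretch nearer the end was 6672 and 6776 in silique, against 5488 and 5408 in flower bud, a ratio of 1.23. In the other A2 stretch it was 5756 and 5729 in silique, against 5618 and 5614 in flower bud, so the sum moved by a factor of only 1.02 although the median gene was higher. Of the 240 genes nearer the end 48 rose and 30 fell, and of the 240 genes farther from it 39 rose and 42 fell.

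The ends of A1 and C1 showed the same opposition with the signs exchanged. On C1, 270 tested genes from 50694185 to 54435921 had a relative shift of 0.38, with summed values of 4815 and 4775 in silique, against 3940.1 and 3837 in flower bud. The shift peaked within the stretch: of the 50 tested genes between 52490566 and 53059094, 3 lay below the median of all genes, 23 rose and 0 fell, and the median was higher by a factor of 2.13. The last 50 tested genes of C1 had a relative shift of only 0.07. On A1, 450 tested genes from 28289121 to 33932683 had a relative shift of -0.27, with summed values of 10331 and 10378 in silique, against 13628 and 13469 in flower bud. In that stretch 20.2% of the genes fell and 8.22% rose. The last 50 tested genes of A1 had a relative shift of -0.55, and 40 of them lay below the median of all genes.

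At the start of A3 and C3 the shifts were again opposite. On C3, 480 tested genes from 67838 to 4387114 had a relative shift of -0.35, with summed values of 7548 and 7647 in silique, against 9707 and 9549 in flower bud. The shift of the median was even near the start, where each of the first 7 blocks of 50 tested genes had a relative shift between -0.51 and -0.38. In the last of these blocks, from 2832536 to 3257579, the summed value moved the other way. It was 967 and 1032 in silique, against 900 and 861 in flower bud. On A3, 270 tested genes from 7739 to 2205373 had a relative shift of 0.33, with summed values of 6545 and 6580.4 in silique, against 5556 and 5420.1 in flower bud. Of the C3 genes 23.1% fell and 7.71% rose, and of the A3 genes 14.1% rose and 8.89% fell.

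A7 and C6 shifted in opposite directions over more genes than the other pairs. On A7, 350 tested genes from 21448417 to 25121390 had a relative shift of 0.28 and 510 from 25427518 to 29726687 one of 0.24. Among the 510, the 50 tested genes from 27211440 to 27582281 had a relative shift of -0.02. The summed value of the 510 genes was 14170.4 and 14141 in silique, against 10567 and 10379 in flower bud, a ratio of 1.35. On C6, 650 tested genes had a relative shift of -0.25 (tested genes 1261 to 1910 in order along the chromosome) and 250 one of -0.27 (1941 to 2190 of 2193). The 650 genes summed to 10971 and 11036 in silique, against 13128 and 13028 in flower bud. Positions of C6 genes were not analysed here.

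**Figure D4:**
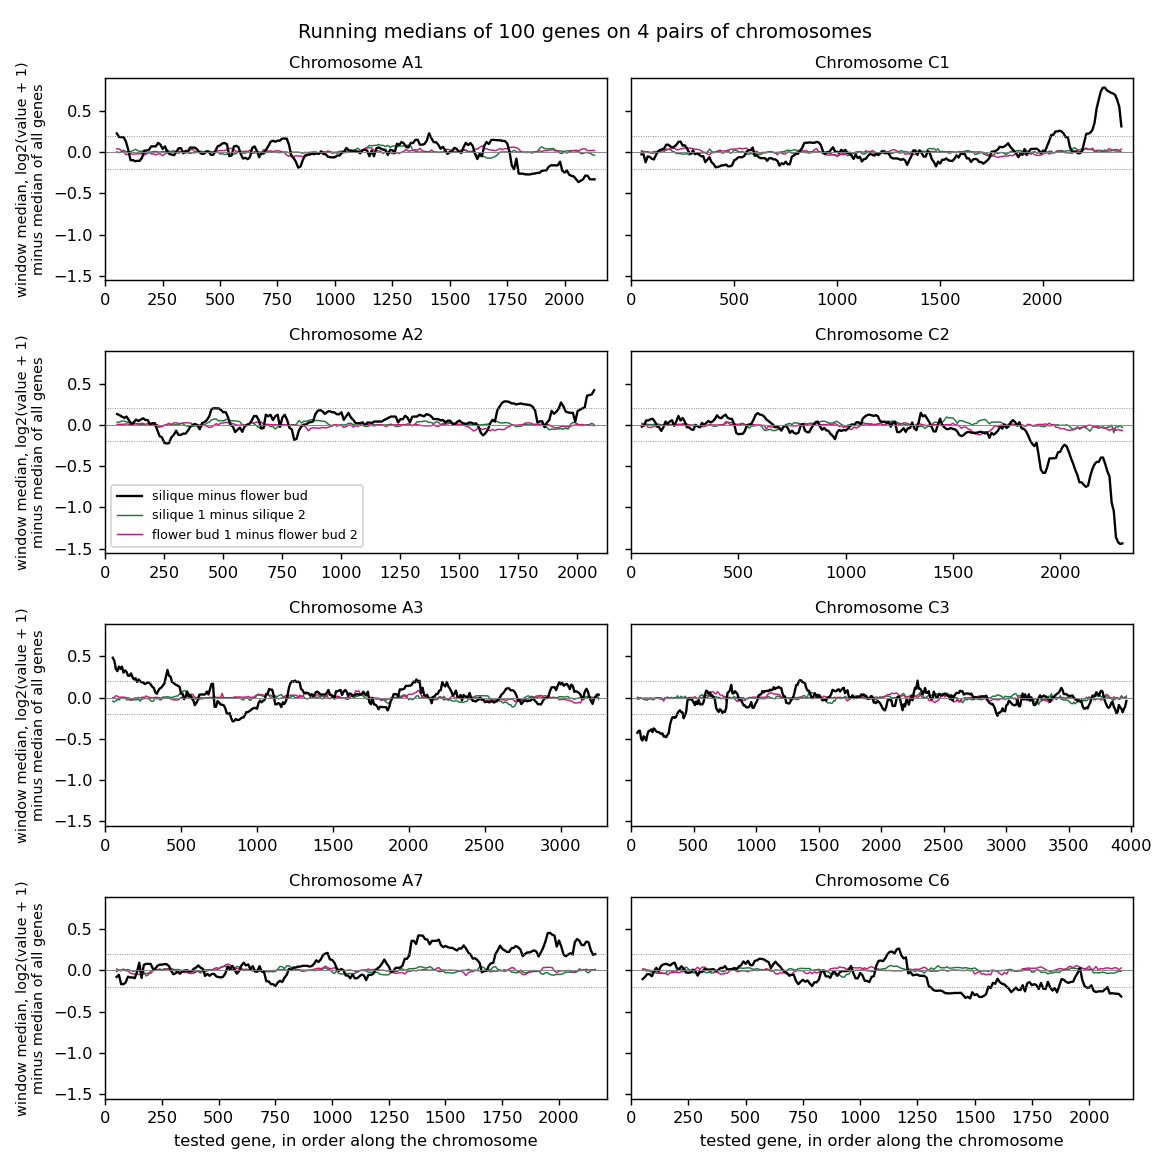
The black line is the running median over 100 tested genes of the difference silique minus flower bud, relative to the median of all genes, for 4 pairs of chromosomes (x, order of tested genes along the chromosome; y, log2(value + 1) scale). Green and magenta lines give the same for silique replicate 1 minus 2 and flower bud replicate 1 minus 2, and dotted lines mark 0.2. The black line leaves 0 in opposite directions at the same ends of A1 and C1, A2 and C2, and A3 and C3, while the replicate lines stay within 0.13.

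The remaining stretches lay on A chromosomes and were higher in silique. They held 250 tested genes of A4 from 19291141 to 22147460 (relative shift 0.21), 210 at the start of A5 up to 2164051 (0.27) and 220 of A6 from 4001258 to 6421307 (0.21). No stretch of at least 200 genes was found on A8 to A10, C4, C5 and C7 to C9 under this rule. Each of the 14 stretches had both silique libraries on one side and both flower bud libraries on the other, which the way they were chosen favours. DNA copy number was not analysed here, and its part in these shifts was not tested.

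**Figure D5:**
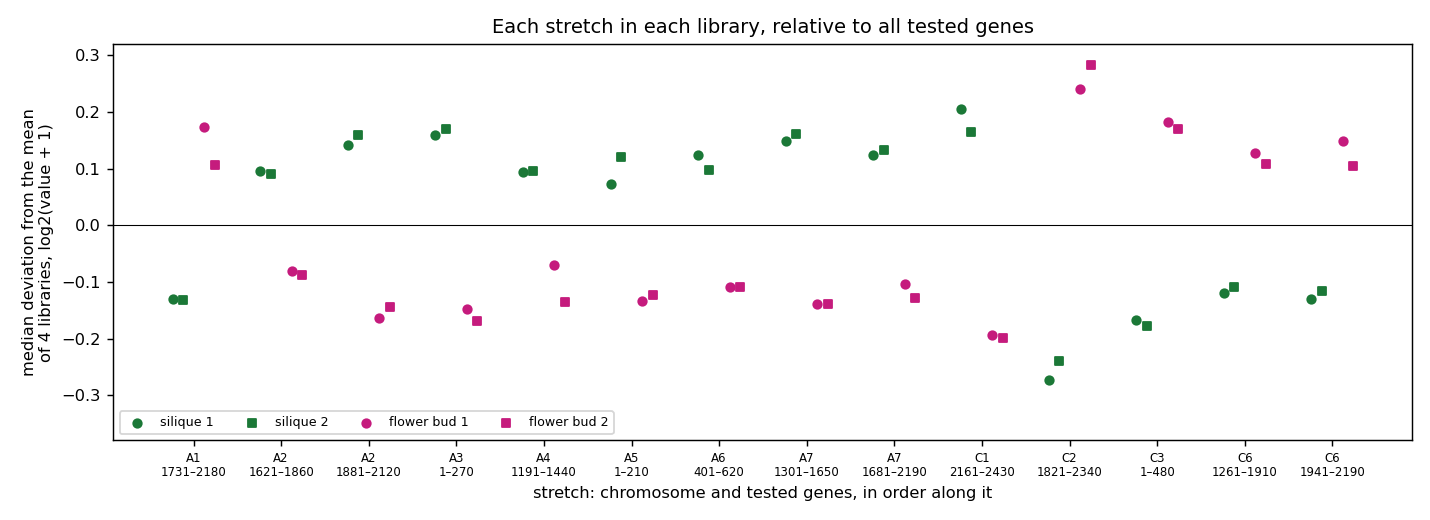
Points give, for each of 14 stretches, the median over its genes of a library's deviation from the mean of the 4 libraries, relative to all tested genes (log2(value + 1) scale). Silique libraries (green) and flower bud libraries (magenta) lie on opposite sides of 0 in every stretch, and the C2 stretch spans the widest range, from -0.27 in silique replicate 1 to 0.28 in flower bud replicate 2.

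The comparison of the subgenomes was repeated without the stretches. Without their genes the A share of reads was 45.94% ± 0.00955 in silique and 45.7% ± 0.0905 in flower bud (SD, n = 2 each), and the difference dropped to 0.210 percentage points. Without the 8 chromosomes A1, C1, A2, C2, A3, C3, A7 and C6 as a whole it was 0.643 points. The stretches and these chromosomes were picked by the same difference between the tissues, which favoured a smaller gap, so results without them are no test. Outside the stretches 12.5% of A genes and 11.8% of C genes fell, and 11.2% of A genes and 10.1% of C genes rose. The order of A and C genes that fell turned without the stretches, and also with recomputed TMM factors, without silique replicate 2 and without flower bud replicate 2, so no difference between the subgenomes in genes that fell was established. The gap of A minus C was -0.17 percentage points with all genes, 0.776 without the stretches, 0.11 with recomputed factors, and 0.07 and 0.13 without these libraries.

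Called genes also lay next to each other outside the stretches. Of the tested neighbours of a gene that rose, 15.3% rose too, beside 10.9% over all genes. Of the tested neighbours of a gene that fell, 16.6% fell too, beside 12.6% over all genes. With pairs outside the stretches the shares were 14.6% and 14.97%, beside 10.6% and 12.1% of the genes there. Among genes with a mean value of at least 5 the excess over all genes was smaller, at 2.89 percentage points for genes that rose and 1.91 for genes that fell, against 4.37 and 3.98 with all tested genes. Neighbours with near-identical sequence can share reads, and such copies were not set apart.

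Runs of at least 5 consecutive tested genes that fell numbered 10, of which 8 lay inside a stretch, and runs that rose numbered 4, of which 3 did. The longest run held 18 genes of C2 that fell, between 63448054 and 64029881, on both strands. This run spanned 64 listed genes, of which only the 18 were tested. Together the 18 genes had a normalized value of 19.3 ± 1.44 in silique and 163 ± 2.19 in flower bud (SD, n = 2 each). The longest run of genes that rose held 9 genes of C1 between 52671129 and 52802856, with 235 ± 1.75 in silique and 73.1 ± 3.66 in flower bud. A run of 5 genes on C3, between 4333413 and 4374627, moved against its stretch: it had 95.5 ± 3.42 in silique and 0.160 ± 0.000919 in flower bud, from 4 reads in all. Runs join genes already called by this difference, so the direction of their sums was fixed by that choice and carries no test.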

How the data were processed

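Polyadenylated RNA was sequenced from TruSeq libraries, per the labels' protocols. The submitters' processing notes list edgeR, featureCounts, GATK, HISAT2 and SAMtools, without the role or version of each. The signal in the normalized table is per gene, scaled by the authors with TMM factors, as the deposited file is named. Counts per gene in the other deposited table are whole numbers, per the file headers. This count table reaches 13 of 19 chromosomes and was used for positions, overlaps and 1 alternative. Lengths in it are spans of gene models in bp, per the file headers.

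In each library 100% of the values were whole multiples of 1 step within 0.05 reads. For 100% of the 51324 genes present in both tables, the recovered number equalled the deposited count. Genes with a mean value of at least 1 over the 4 libraries were tested with limma 3.58.1 in R 4.3.3 on log2(value + 1), with a mean trend and without a replicate block. Each gene had 2 residual degrees of freedom, and limma added 9.23 prior degrees of freedom from the spread of all tested genes. The p-values thus rest largely on that shared spread. P-values were adjusted by Benjamini-Hochberg over all 47347 genes. Alternatives used edgeR 4.0.16 and DESeq2 1.42.0 on recovered reads. Steps were tested on simulated data. Python 3.11.15, NumPy 2.4.6, pandas 2.3.3 and SciPy 1.17.1 were used.

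The comparison, the lists and the rules were chosen with earlier results of these data known, and the stretches, neighbours and runs after these differences had been seen. None of the identifiers (0 of 95143) was found in the reference table of gene names, which is for the Da-Ae assembly, so planned marker lists were not run and 4 genes are named: on A and on C, the called gene with the largest rise and the largest fall in value, with no overlap between libraries of the tissues, skipping genes that overlap another gene model in the count table, which could not be checked on C6.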

Additional observations from a re-analysis of the deposited data

How the results depend on the processing

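Genes that rose numbered 3140 and genes that fell 3457 when a mean value of at least 5 was required, which left 32447 genes, 2786 and 2895 with limma's treat at a threshold of 1, and 11065 and 15549 by adjusted p alone. EdgeR on recovered reads gave 7854 and 7356. Without genes in the stretches they numbered 4504 and 5140. Leaving out 1 library at a time gave 4573 to 4734 and 4824 to 5714 with limma, and 6865 to 7905 and 6643 to 7305 with edgeR, with 7840 genes that rose without flower bud replicate 2. With 1 library left in a tissue, that library is assumed to vary like the others.

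The replicate block gave 5170 and 5981, and changed no call of a named gene. The numbers were not shown to pair the libraries, since the deviations of same-numbered libraries correlated at -0.02 and the labels name no shared plant or day.

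The difference of 0.862 points in the A share of reads kept its sign under every alternative run, and lay between 0.799 and 0.924 without 1 library. The gap between A and C genes that rose, 1.74 points, was 1.15 without the stretches and 1.61 to 1.75 without 1 library. The gap between A and C genes that fell, -0.17 points, turned to 0.11 with recomputed TMM factors and to 0.776 without the stretches, and lay between -0.34 and 0.13 without 1 library, where it turned without silique replicate 2 (0.07) and without flower bud replicate 2 (0.13). The excess share of same-direction neighbours, 4.37 points for genes that rose and 3.98 for genes that fell, was 2.89 and 1.91 with a mean value of at least 5. The cause of these changes was not tested. The 100 most abundant genes differed by 1.73 to 1.80 points without 1 library.

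All 14 stretches kept their direction under the pseudocounts, filters, scalings, tests and left-out libraries run, which reuse the libraries that chose them. The shift of the C2 stretch ranged from -0.63 to -0.45 and that of the weakest, on A2 from 26459294, from 0.17 to 0.23. The shift closest to 0 under any of these was 0.14, on A4. Windows of 60 genes gave 13 stretches. Genes with a mean of at least 5 gave 16, with stretches also on C5 and C9, none on A5 and fewer on A2 and A7. With that filter A3 and A4 each also held a stretch lower in silique, beside the higher one, and C2 held a further lower one. A deviation of 0.3 gave 5, on A7, C1, C2 and C3. With it, none of the chromosome pairs described above held a stretch on both members. Depth limits low genes: 1 read was worth 0.0985 in silique replicate 2, the shallowest library, and differences near that size could not be resolved.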

Other observations

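In the part of the genome that the count table reaches, the share of genes that rose in silique differed with the span of the gene model. Among the 6148 tested genes with the shortest spans of 5 equal groups, up to 1611 bp, 15.7% rose and 13.6% fell in silique. Among the 6142 with the longest spans, from 4859 bp, 10.2% rose and 13.4% fell. The median level moved with span, from a mean value of 4.84 in the shortest group to 16.6 in the longest, and its part in the difference was not tested. The span includes introns. The median span was 2453 bp among the 3503 genes that rose, 2712 bp among the 3967 that fell and 2763.5 bp among the genes not called.

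The share of called genes also differed with overlap between gene models, without a test of the difference. Of 6291 such genes 8.22% rose and 10.9% fell in silique, and of 24433 genes without overlap 12.2% rose and 13.4% fell. The sources used here do not give the strand setting of the counting, so reads of overlapping genes cannot be told apart. On unplaced sequences 12 of 71 tested genes rose, or 16.9% beside 10.9% of all tested genes, and 6 fell, or 8.45% beside 12.6%, with 0.102% ± 0.000557 of the reads in silique and 0.0900% ± 0.00113 in flower bud (SD, n = 2 each).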
